A study of Mus musculus with 3 samples.

Results

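The antioxidant genes and targets of NRF2 were followed through the cell types of mouse dorsal skin in 3 single-cell RNA libraries. The set was chosen by name and held 40 genes of the 32285 in the count tables: Nfe2l2, which encodes NRF2, its repressor Keap1, and 38 genes for enzymes and proteins that make, spend or regulate reducing power. All 40 were found in the tables. The library CON came from skin that was not irradiated, UV from skin irradiated over 12 weeks, on alternate days, with a mixture of UVA (0.60 mW/cm2) and UVB (3.5 mW/cm2), and Rux from skin irradiated in the same way and given 1.5% ruxolitinib ointment, an inhibitor of the kinases JAK1 and JAK2, on the skin straight after each exposure. The study describes CON and UV skin as given the vehicle. All mice were wild-type C57BL/6J animals labelled female, with 8 weeks given as their age when obtained, ahead of the irradiation, and full-thickness dorsal skin was taken 24 h after the final exposure. The number of mice behind each library was not given in the sources used here, and each condition had 1 library, so no difference between conditions below had a replicate check. Every ratio is a comparison of these libraries.

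NRF2 is a transcription factor that is held at a low level by KEAP1, which hands it to the proteasome. Oxidants and electrophiles modify KEAP1, NRF2 then accumulates, enters the nucleus and, with a small MAF protein, binds antioxidant response elements near genes for glutathione synthesis, NADPH supply, thioredoxin reduction and detoxification. In skin this system stands between light-derived reactive oxygen species and the cells of epidermis and dermis. NRF2 is controlled mainly at the level of the protein, which these libraries did not measure.

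The letters of the element core, TGACNNNGC, were searched on both strands of 300-base promoter windows, 250 bases before and 50 after the annotated start, taken from RefSeq on GRCm38.p6. Read on the opposite strand the core is GCNNNGTCA. It was in at least 1 window of 10 of the 35 members with a window, namely Nfe2l2, Txnrd1, Srxn1, Prdx1, Gclm, G6pdx, Pgd, Me1, Sod1 and Mgst1, which is 28.6%. By the same count it was in 13.99% of all genes with a window, and in 12.4% of all windows. The letters of an AP-1 site, TGANTCA, read alike on both strands and can overlap the core. They were in 6 of the 35 members, or 17.1%, against 8.97% of all genes with a window. The motifs overlapped or lay next to each other in 149 of 32851 windows. Those of Me1 and Prdx1 were among them, and in both the motifs overlapped. The 5 windows below belong to members whose level in UV was at least 1.5-fold that in CON in fibroblasts or epithelium. Pgd meets this too and is not shown. Its match lay 3 bases after a second annotated start. Me1, Mgst1 and Pgd also had a window at another start without the core. Txnrd1 had windows without the core at starts on either side of the start shown, which is thus not its first. The 5 windows are shown 5′ to 3′ on the strand of the gene, with the core in capitals. The core began 92 bases before the start in Txnrd1 (chr10:82858956-82859255, plus strand), 28 bases after it in Srxn1 (chr2:152105274-152105573, plus strand), 134 bases before it in Gclm (chr3:122245307-122245606, plus strand), 6 bases before it in Me1 (chr9:86695865-86696164, minus strand) and 56 bases before it in Mgst1 (chr6:138140277-138140576, plus strand).
Txnrd1: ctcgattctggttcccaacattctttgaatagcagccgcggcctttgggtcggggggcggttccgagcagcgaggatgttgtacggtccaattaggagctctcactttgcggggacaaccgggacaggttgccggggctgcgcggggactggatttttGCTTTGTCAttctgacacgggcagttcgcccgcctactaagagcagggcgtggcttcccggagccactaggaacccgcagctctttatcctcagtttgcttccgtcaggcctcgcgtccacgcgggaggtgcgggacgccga
Srxn1: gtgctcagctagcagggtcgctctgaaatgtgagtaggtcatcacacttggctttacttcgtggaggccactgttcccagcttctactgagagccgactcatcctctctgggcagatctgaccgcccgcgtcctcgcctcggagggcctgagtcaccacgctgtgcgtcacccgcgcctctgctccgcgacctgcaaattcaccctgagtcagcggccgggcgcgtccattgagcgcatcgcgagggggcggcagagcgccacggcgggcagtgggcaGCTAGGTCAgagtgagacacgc
Gclm: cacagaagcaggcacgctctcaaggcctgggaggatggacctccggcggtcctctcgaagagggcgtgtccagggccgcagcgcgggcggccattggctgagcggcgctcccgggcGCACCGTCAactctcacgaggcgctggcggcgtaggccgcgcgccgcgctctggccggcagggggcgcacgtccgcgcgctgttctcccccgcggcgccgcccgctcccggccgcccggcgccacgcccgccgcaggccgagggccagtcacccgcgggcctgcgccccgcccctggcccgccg
Me1: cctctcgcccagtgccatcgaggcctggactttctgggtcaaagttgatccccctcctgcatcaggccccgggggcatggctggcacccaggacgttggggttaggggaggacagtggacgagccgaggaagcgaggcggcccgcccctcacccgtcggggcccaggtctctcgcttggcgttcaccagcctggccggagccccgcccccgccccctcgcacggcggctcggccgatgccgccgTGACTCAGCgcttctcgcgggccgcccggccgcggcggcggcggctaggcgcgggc
Mgst1: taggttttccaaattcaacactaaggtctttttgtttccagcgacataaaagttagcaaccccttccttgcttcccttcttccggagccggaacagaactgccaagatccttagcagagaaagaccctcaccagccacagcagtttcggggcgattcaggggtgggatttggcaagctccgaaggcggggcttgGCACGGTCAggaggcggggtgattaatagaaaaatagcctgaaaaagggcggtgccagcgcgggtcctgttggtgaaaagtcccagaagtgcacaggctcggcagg
In Me1 the core was read on the gene's own strand, and in the other 4 genes on the opposite strand. A match is a run of letters in this window and was not tied to binding. Gclc, Gsr, Prdx6, Sod3 and Gsta4 had no window.

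After filters on genes per cell, mitochondrial RNA and doublets, 10777 CON, 10231 UV and 9299 Rux cells were kept, with a median of 7549 to 9438 UMIs per cell. Cells were clustered anew into 46 clusters and named by fixed markers, since no annotation was used, so numbers of cells rest on rebuilt names. Fibroblast-like cells (FB) numbered 3390, 5145 and 5029 in CON, UV and Rux, and epithelial-like cells of epidermis and follicle (EPI) numbered 3616, 1897 and 1590. The labels matched the markers: 7 fibroblast markers summed to 27586 to 34903 counts per 1000000 UMIs (CPM) in FB and 506 to 716 CPM in EPI, whereas 8 epithelial markers summed to 9411 to 12133 CPM in EPI and 198 to 456 CPM in FB. Between 684 and 1464 cells per library stayed unnamed. The label female was not borne out by the counts in any library: Ddx3y of the Y chromosome had 110 to 121 CPM, and Xist had 13 or 14 UMIs in all kept cells of a library. Any pair of libraries shared between 28 and 50 cell barcodes. Immediate-early genes, which respond to tissue handling and to growth signals, summed in FB to 22904 CPM in CON, 11974 in UV and 12956 in Rux. Haemoglobin RNA summed in EPI to 6.47, 20.9 and 152 CPM. The part of either in the ratios below was not tested.

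Levels are UMIs of a gene in CPM, scaled to the UMIs of all cells of a class in a library, ratios are log2 with 0.5 UMI added, and intervals are exact 95% intervals that cover counting error only. A member counts as higher or lower where its level differs by 1.5-fold or more, provided that the mean of both libraries is at least 10 CPM.

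The members were spread over the skin rather than gathered in 1 cell type. Among the 8 classes with at least 100 cells in every library, 21 of 40 members had the same leading class in all 3 libraries. Myeloid-like cells (MYE) led for 8 members: the peroxiredoxins Prdx1 and Prdx5, glutathione reductase Gsr, the cystine importer Slc7a11, the pentose phosphate enzymes G6pdx, Pgd and Taldo1, and the peroxidase Gpx1. FB led for 6, namely the secreted enzymes Gpx3 and Sod3, the endoplasmic reticulum peroxidases Gpx7 and Gpx8, and the transferases Gstm1 and Mgst1. EPI led for Prdx2, Gpx2 and Gsto1, lymphoid-like cells for Glrx and Prdx6, lymphatic endothelial-like cells (LEC) for Nqo1 and blood endothelial-like cells (VEC) for Keap1. In CON, the counting intervals of the first and the next class overlapped for 8 of these 21, namely Keap1, G6pdx, Pgd, Taldo1, Gpx1, Gpx2, Gsto1 and Nqo1, and their order there is not settled. Keap1, G6pdx and Taldo1 overlapped likewise in UV, and Keap1, G6pdx, Gpx8, Gstm1 and Nqo1 in Rux.

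Slc7a11 and Gpx3 were spread very unevenly. Slc7a11, the light chain of the cystine and glutamate exchanger that feeds glutathione synthesis, stood at 545 CPM in CON, 894 in UV and 1170 in Rux in MYE, while VEC, the next class in CON, had 29.6, 45.0 and 15.1 CPM. It was higher still in neutrophil-like cells, at 3423, 5012 and 3936 CPM, which numbered 50, 21 and 221. Over all kept cells Slc7a11 therefore read 18.1, 37.6 and 78.0 CPM, with Rux highest, although in FB it was lowest in Rux. Neutrophil markers summed to 185, 201 and 446 CPM in MYE, against 65318 CPM or more in neutrophil-like cells. Gsr was likewise high in both, with 186, 243 and 295 CPM in MYE and 1216, 1838 and 1049 CPM in neutrophil-like cells. The mixture of MYE clusters differed between the libraries, as given further below, and its part in these MYE levels was not tested. Gpx3, the plasma peroxidase, had 2473, 3085 and 2226 CPM in FB and 253, 327 and 366 CPM in pericyte-like cells (PCY), the class next to FB among the 8. Txnip, the thioredoxin inhibitor, was high in VEC at 1011, 682 and 885 CPM, and Nqo1, the quinone reductase often used as an NRF2 readout, reached 26.8, 56.6 and 38.4 CPM in LEC but 2.27 to 6.94 CPM in FB and EPI. Nfe2l2 itself was at 383 CPM in PCY, 380 in MYE, 323 in LEC, 295 in VEC, 241 in Schwann-like cells (SCH), 221 in FB, 200 in lymphoid-like cells and 125 CPM in EPI in the CON library.

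**Figure D1:**
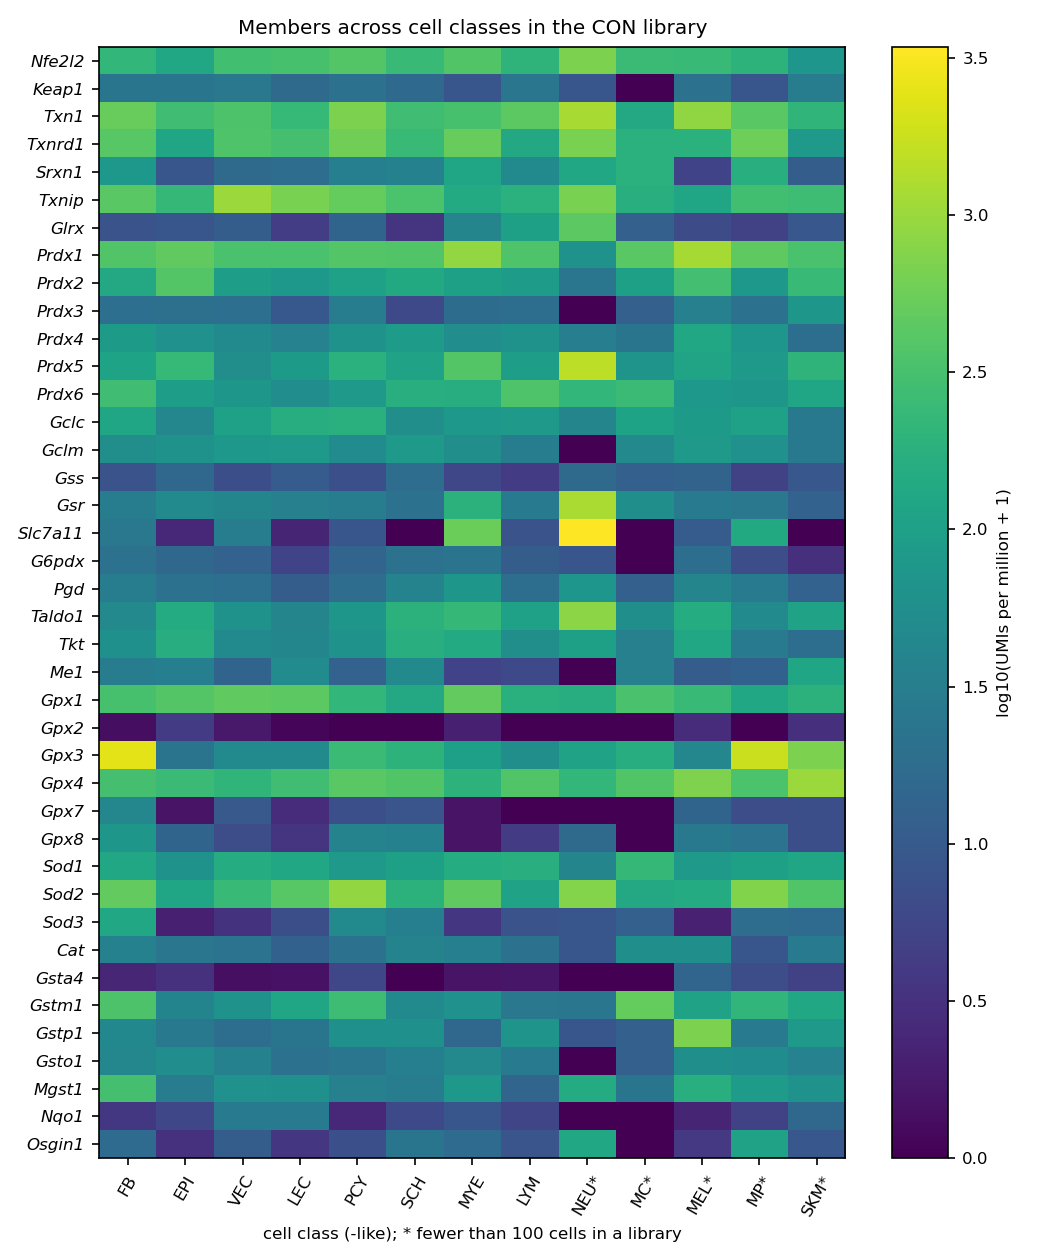
Level of each member (rows) in each cell class (columns) of the CON library, as the colour of log10 of CPM with 1 added; an asterisk marks classes with fewer than 100 cells in some library. Gpx3 was brightest in FB and muscle progenitor-like cells (MP), at 2473 and 1759 CPM, and Slc7a11 in neutrophil-like cells (NEU), at 3423 CPM.

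In FB, 7 of the 35 members above the minimum were higher in UV than in CON, and they supply or reduce glutathione (Gclc, Gclm, Gsr), serve the thioredoxin system (Txnrd1, Srxn1) or make NADPH (Pgd, Me1). The share of all 8361 genes that were higher was 6.06%. Osgin1 alone was lower, beside 7.68% of all genes. The median log2 ratio was -0.04 over the members and -0.10 over all genes, and 27 members were within 1.5-fold. Glrx, Gss, Gpx2, Gsta4 and Nqo1 were below the minimum.

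The regulators showed little of this at the RNA level. Nfe2l2 was at 221 CPM in CON, 310 in UV and 225 in Rux, a log2 ratio of 0.49 for UV over CON. UV was the highest of the libraries, but the ratio was under 1.5-fold, and within clusters it ranged from -0.33 to 0.86 with 5 of 8 clusters above 0. With the FB clusters of at least 20 cells in every library weighted as in CON, the ratio of Nfe2l2 was 0.01. Keap1 was at 22.4, 15.5 and 16.3 CPM, highest in CON, with a ratio of -0.53.

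Among the genes of glutathione supply, 3 of 4 were higher in UV and the median ratio was 0.65. Gclm, the modifier subunit of the rate-limiting ligase of glutathione synthesis, had 53.9 CPM in CON, 133 in UV and 56.9 in Rux, a log2 ratio of 1.31 (1.22 to 1.40) for UV over CON. UV stood apart while CON and Rux were close, and all 8 clusters with enough cells had a ratio above 0, from 0.38 to 1.75. Gclc, the catalytic subunit, had 121, 185 and 109 CPM, a ratio of 0.61 (0.55 to 0.68). Its clusters were less uniform, with 6 of 8 above 0, and the ratio was 0.15 with clusters weighted as in CON. Gsr, which returns oxidised glutathione to its reduced form, had 30.1, 48.8 and 45.7 CPM, a ratio of 0.70 (0.57 to 0.82), and was high in both irradiated libraries. Its ratio was above 0 in 8 of 8 clusters but only 0.01 in the lowest, and 0.25 after weighting. Slc7a11 had 24.8, 32.2 and 10.9 CPM, and its cluster ratios for UV over CON ran from -1.80 to 2.15.

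In the thioredoxin system, 2 of 10 members were higher, and both act on oxidised partners of the pathway. Txnrd1, the selenoenzyme that reduces cytosolic thioredoxin, had 409 CPM in CON, 686 in UV and 328 in Rux, a log2 ratio of 0.75 (0.71 to 0.78). Srxn1, which rescues overoxidised peroxiredoxins, had 75.3, 182 and 115 CPM, a ratio of 1.28 (1.20 to 1.35). UV was highest for both, and both were above 0 in 8 of 8 clusters, at 0.06 or more. Txn1 and the peroxiredoxins Prdx1 to Prdx6 had ratios from -0.30 to 0.36, none past 1.5-fold. Txnip had 423, 291 and 430 CPM, lowest in UV, with a ratio of -0.54.

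In NADPH supply, Pgd and Me1 were higher, while G6pdx, Taldo1 and Tkt had ratios from -0.12 to 0.29. Pgd, the enzyme of the oxidative pentose phosphate pathway after G6pdx, had 29.9 CPM in CON, 75.7 in UV and 52.5 in Rux, a log2 ratio of 1.34 (1.22 to 1.46), the highest of any member in FB. It was above 0 in 8 of 8 clusters, from 0.48 to 1.04, and each of these lay below the ratio of the class. Me1, cytosolic malic enzyme, had 30.5, 51.6 and 38.7 CPM, a ratio of 0.76 (0.64 to 0.88) that was 0.24 with clusters weighted as in CON. In the pooled class, the direct scavengers differed from these supply genes. None of 5 glutathione peroxidases, 4 superoxide dismutases and catalase, or 4 transferases above the minimum was higher in UV, and the medians of these groups were -0.15, 0.17 and -0.20. Gpx3 was nonetheless above 0 in 8 of 8 clusters, from 0.15 to 1.86, against 0.32 for the class. Within clusters the groups were not separate. The median cluster ratio was 0.77 for Gpx3, 0.38 for Cat and 0.35 for Sod3, but -0.30 for Gpx1 and -0.33 for Sod2. Among the supply genes it was 0.95 for Gclm and 0.75 for Pgd, but 0.20 for Gclc, 0.12 for Gsr and 0.25 for Me1. Osgin1, an oxidative stress-induced growth inhibitor, had 16.0, 9.29 and 6.76 CPM, highest in CON, with a ratio of -0.79 (-0.998 to -0.57).

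**Figure D2:**
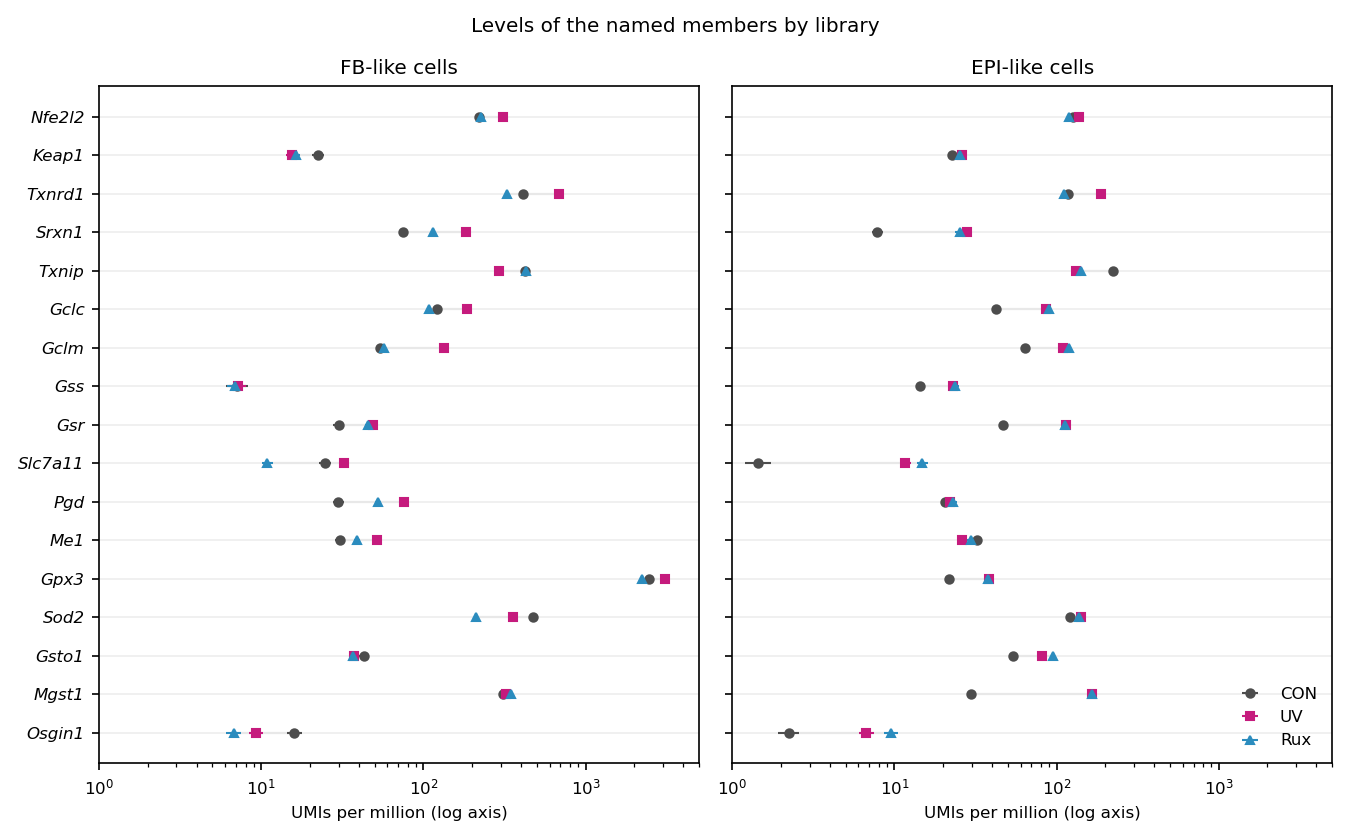
Level in CPM (log axis) of the members past 1.5-fold in FB or EPI, and of Nfe2l2 and Keap1, in CON, UV and Rux, with exact 95% Poisson intervals as bars. Gclm and Txnrd1 in FB peaked in UV, whereas Gsr and Mgst1 in EPI were alike in UV and Rux and lower in CON.

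The mixture of fibroblasts differed between the libraries and touches these ratios. Cluster 3, led by Sntg1 and Mrgprg, held 128 CON, 1081 UV and 357 Rux cells, and in UV it gave 41.9% of the Nfe2l2 UMIs, 34.6% of the Srxn1 UMIs and 44.9% of the Pgd UMIs of FB. Its Nfe2l2 level was high in every library, at 520, 557 and 482 CPM. With clusters weighted as in CON, the log2 ratios were 0.88 for Gclm, 0.71 for Srxn1, 0.72 for Pgd and 0.40 for Txnrd1, all above 0 and smaller than in the pooled class. With this weighting 4 members were higher by 1.5-fold, namely Gclm, Srxn1, Pgd and Gpx3, and 2 were lower, namely Osgin1 and Sod2. The share of all genes past 1.5-fold was not computed with this weighting, so these counts have no background beside them. Cluster 26, led by Saa3 and with 4 CON cells, was too small to be weighted and was left out. Of the 7 members higher in UV in the pooled class, 5 had a promoter window, and each of the 5 held the element core in at least 1 window. Of the other 33 members, 30 had a window and 5 held it. In EPI, 4 of the 7 members higher in UV with a window held it, and 6 of 28 others. Txnrd1, Pgd, Me1 and Mgst1, like Glrx, Gpx4 and Gstm1, had more than 1 window and so more places for a match. Gpx3, which joined the higher members of FB with the weighting, held no core. These counts were not tested.

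Rux is set against UV next. The UV library is a part of both comparisons, which are therefore not independent, and the levels in all 3 libraries are given side by side above. In FB, no member was higher in Rux than in UV, beside 3.34% of all 8162 genes, and 6 of 35 were lower, 17.1% of the members beside 5.11% of all genes. The median ratio was -0.01 over the members and 0.03 over all genes. The 6 were Slc7a11, Gclm, Txnrd1, Gclc, Sod2 and Srxn1, so that 3 of 4 genes of glutathione supply were among them.

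Slc7a11 had the largest of these ratios, at -1.56 (-1.71 to -1.42), with 10.9 CPM in Rux and 32.2 CPM in UV. CON, at 24.8 CPM, lay nearer to UV, and the ratio was below 0 in 9 of 9 clusters. For Gclm the ratio was -1.23 (-1.29 to -1.16), for Txnrd1 -1.06 (-1.09 to -1.04), and both were below 0 in 10 of 10 clusters, the former from -1.44 to -0.43 and the latter from -1.25 to -0.47. Gclc had a ratio of -0.77 (-0.82 to -0.72), which was -0.17 with clusters weighted as in CON, and Srxn1 had -0.67 (-0.72 to -0.62), which was -0.35. The weighted ratios of Txnrd1 and Gclm were -0.71 and -0.84.

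Sod2, the mitochondrial superoxide dismutase that is also a known target of NF-kB and cytokine signals, behaved unlike the others. It had 476 CPM in CON, 359 in UV and 213 in Rux, so that UV lay between the other libraries. Its ratio of Rux over UV was -0.76 (-0.79 to -0.72), below 0 in 10 of 10 clusters. Gsr, Pgd and Me1 had ratios of -0.10, -0.53 and -0.42 and stayed within 1.5-fold of UV. Most clusters went the other way, with Gsr above 0 in 8 of 10 (median 0.16), Pgd in 6 (median 0.06) and Me1 in 6 (median 0.09). The cytosolic and extracellular scavengers did not share the pattern of Sod2. Sod1 was at 128, 137 and 134 CPM and Sod3 at 127, 152 and 218 CPM, highest in Rux. Txnip was above 0 in 10 of 10 clusters, with a class ratio of 0.56.

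**Figure D3:**
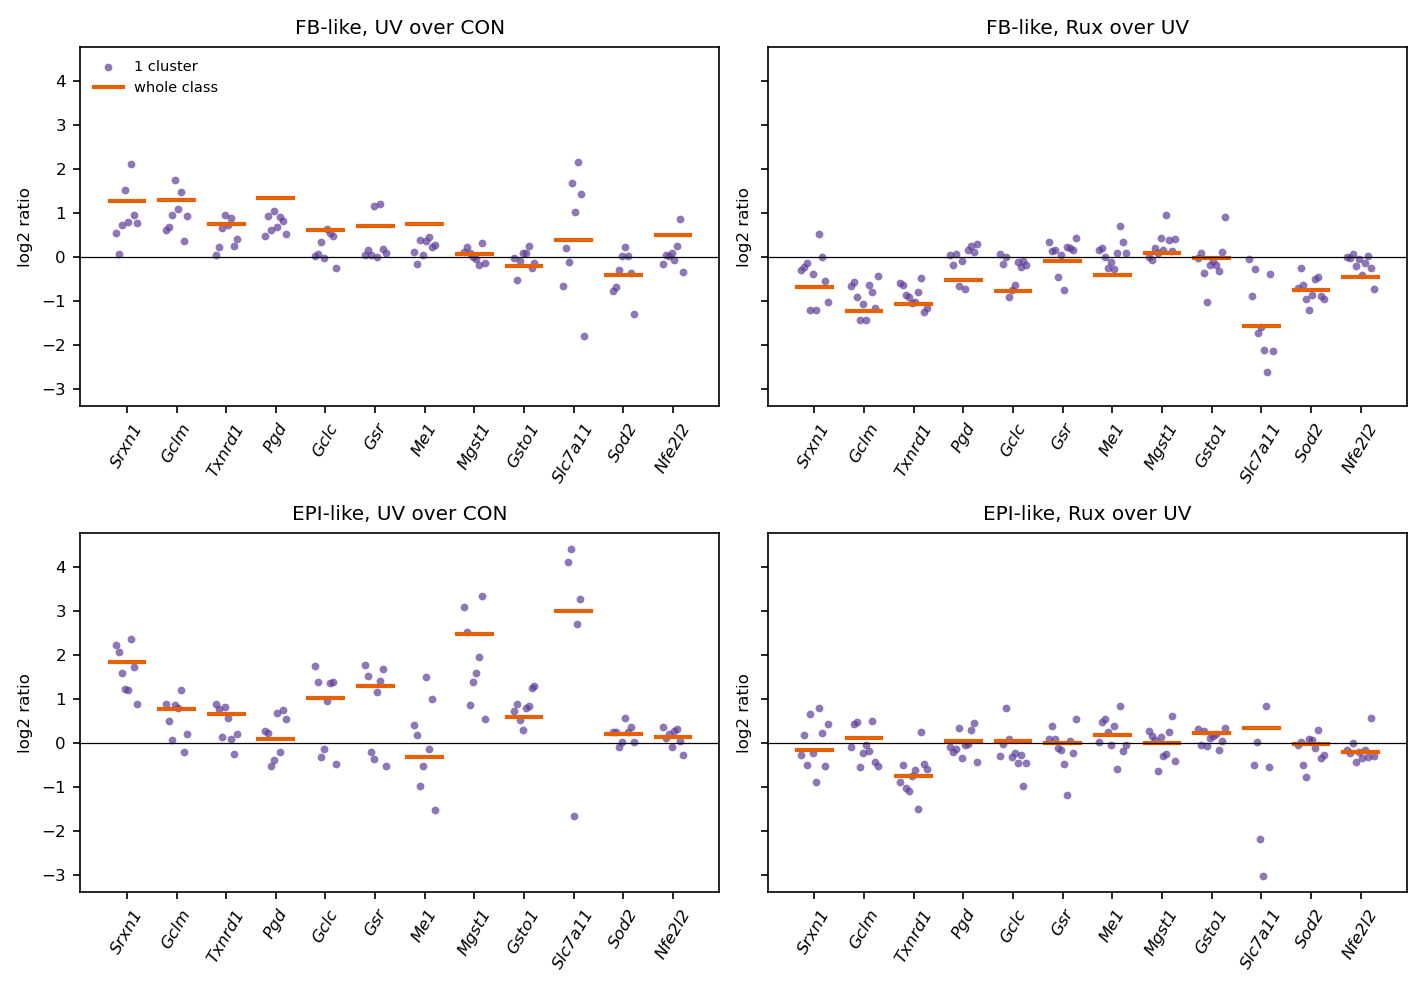
Log2 ratio of UV over CON and of Rux over UV within single clusters of FB and EPI with at least 50 cells in both libraries (points), with the ratio of the whole class as a bar. For Gclm and Txnrd1 in FB every point lay above 0 in the first comparison and below 0 in the second, whereas the points of Nfe2l2 fell on both sides.

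In EPI, 9 of the 32 members above the minimum were higher in UV than in CON, 28.1% of the members beside 4.23% of all 8637 genes, and 1 was lower, beside 3.69% of all genes. The median ratio was 0.08 over the members and -0.05 over all genes. Glutathione supply again led, with Gclc, Gclm, Gss and Gsr all higher, and Txnrd1 and Srxn1 were higher as in FB. Pgd and Me1 were not among them, with 20.7 and 32.2 CPM in CON and 22.1 and 25.9 CPM in UV. The remaining 3 were Mgst1, Gsto1 and Gpx3, and the 22 members within 1.5-fold ranged from -0.56 for Prdx5 to 0.56 for Txn1. Glrx, Slc7a11, Gpx2, Gpx7, Sod3, Gsta4, Nqo1 and Osgin1 were below the minimum. The mixture of epithelial clusters differed too: a basal-type cluster led by Il20ra held 473, 25 and 74 cells in CON, UV and Rux, a suprabasal-type cluster led by Krt77 held 248, 5 and 19, and an inner root sheath-type cluster led by Krt71 held 46, 148 and 166. With clusters weighted as in CON, 8 members were higher, Txnrd1 and Gss no longer being past 1.5-fold (0.53 each) and Glrx being added. The share of all genes past 1.5-fold was not computed with this weighting. The Krt77 cluster and a cluster led by Fhod3 were too small in a library to be weighted and were left out. With 25 and 5 UV cells, the Il20ra and Krt77 clusters had no ratio of their own.

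Mgst1, a membrane-bound transferase and peroxidase, differed most. It had 29.8 CPM in CON, 165 in UV and 165 in Rux, a log2 ratio of 2.47 (2.40 to 2.53) for UV over CON, with both irradiated libraries alike. All 8 clusters had a ratio above 0, from 0.55 to 3.35. In FB the same gene had 311, 325 and 345 CPM. The level of Mgst1 in EPI per 1000 CPM of collagen RNA was 187, 1051 and 929 CPM against 14.6, 22.4 and 23.5 CPM in FB. Mgst1 was also abundant in an unnamed cluster led by Elovl3 (44, 37 and 1 cells), at 5302, 3489 and 3956 CPM, which was not counted in EPI. Whether RNA from fibroblasts or from the Elovl3-led cells adds to the Mgst1 counts of EPI was not tested.

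The glutathione genes of EPI were high in both irradiated libraries. Gsr had 46.5 CPM in CON, 114 in UV and 113 in Rux, a log2 ratio of 1.29 (1.23 to 1.35). Gclc had 42.4, 86.4 and 89.7 CPM, a ratio of 1.03 (0.96 to 1.09), and Gclm had 64.3, 110 and 119 CPM, a ratio of 0.77 (0.72 to 0.83). CON was lowest for all 3. Gss, glutathione synthetase, had 14.4, 23.0 and 23.7 CPM, a ratio of 0.67 (0.56 to 0.79). The clusters were not uniform: Gclc and Gsr were above 0 in 5 of 8 clusters, with ranges of -0.47 to 1.74 and -0.52 to 1.78, and Gclm in 7 of 8.

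Srxn1 was at 7.83 CPM in CON, 28.0 in UV and 25.2 in Rux in EPI, a log2 ratio of 1.84 (1.70 to 1.97), and it was above 0 in 8 of 8 clusters. Txnrd1 had 118, 187 and 111 CPM, a ratio of 0.66 (0.62 to 0.70), and unlike the other members higher in UV it was as low in Rux as in CON. Gsto1, an omega-class transferase, had 53.9, 80.9 and 94.7 CPM, a ratio of 0.59 (0.52 to 0.65) that only just passed 1.5-fold. It was above 0 in 8 of 8 clusters, from 0.29 to 1.29. Txnip was the member that was lower, with 223, 133 and 142 CPM and a ratio of -0.75 (-0.79 to -0.71). Its cluster ratios ran from -1.38 to 1.24, and with clusters weighted as in CON the ratio was -0.21.

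Gpx3 in EPI needs its background beside it. It had 21.7 CPM in CON, 38.3 in UV and 37.6 in Rux, a log2 ratio of 0.82 (0.73 to 0.92). Per 1000 CPM of collagen RNA it stood at 136, 244 and 211 CPM in EPI and at 117, 213 and 151 CPM in FB, near the same proportion in both. For Srxn1 the figures were 49.2, 178 and 142 CPM in EPI against 3.55, 12.6 and 7.80 CPM in FB. Collagen RNA in EPI was 0.75%, 1.08% and 1.21% of its level in FB. Whether free RNA from fibroblasts accounts for the Gpx3 counts of EPI was not tested. Nfe2l2 and Keap1 in EPI had 125, 137 and 119 CPM, and 22.6, 26.0 and 25.3 CPM, ratios of 0.13 and 0.20.

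In EPI, Txnrd1 was the only member past 1.5-fold for Rux over UV among 34 above the minimum, with a log2 ratio of -0.76 (-0.81 to -0.71), below 0 in 9 of 10 clusters. That is 2.9% of the members lower beside 1.69% of all 8614 genes, and no member was higher beside 2.67% of all genes. The median ratio was -0.02 over the members and -0.02 over all genes. Mgst1, Gsr, Gclc, Gclm, Gss and Srxn1 had ratios from -0.15 to 0.11, so their pooled levels in Rux stayed near those in UV. In pooled FB the ratios of Gclm, Gclc and Srxn1 were -1.23, -0.77 and -0.67. Within EPI clusters, Gclc was below 0 in 8 of 10 (median -0.29) and Gclm in 7 of 10 (median -0.13). Srxn1 and Gsr were below 0 in 5 of 10 each, Gss in 6 and Mgst1 in 4. Within FB clusters, Gclc was below 0 in 9 of 10 (median -0.17), Gclm in 10 (median -0.86) and Srxn1 in 8. Whether FB and EPI differ in these ratios could not be tested with 1 library per condition.

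**Figure D4:**
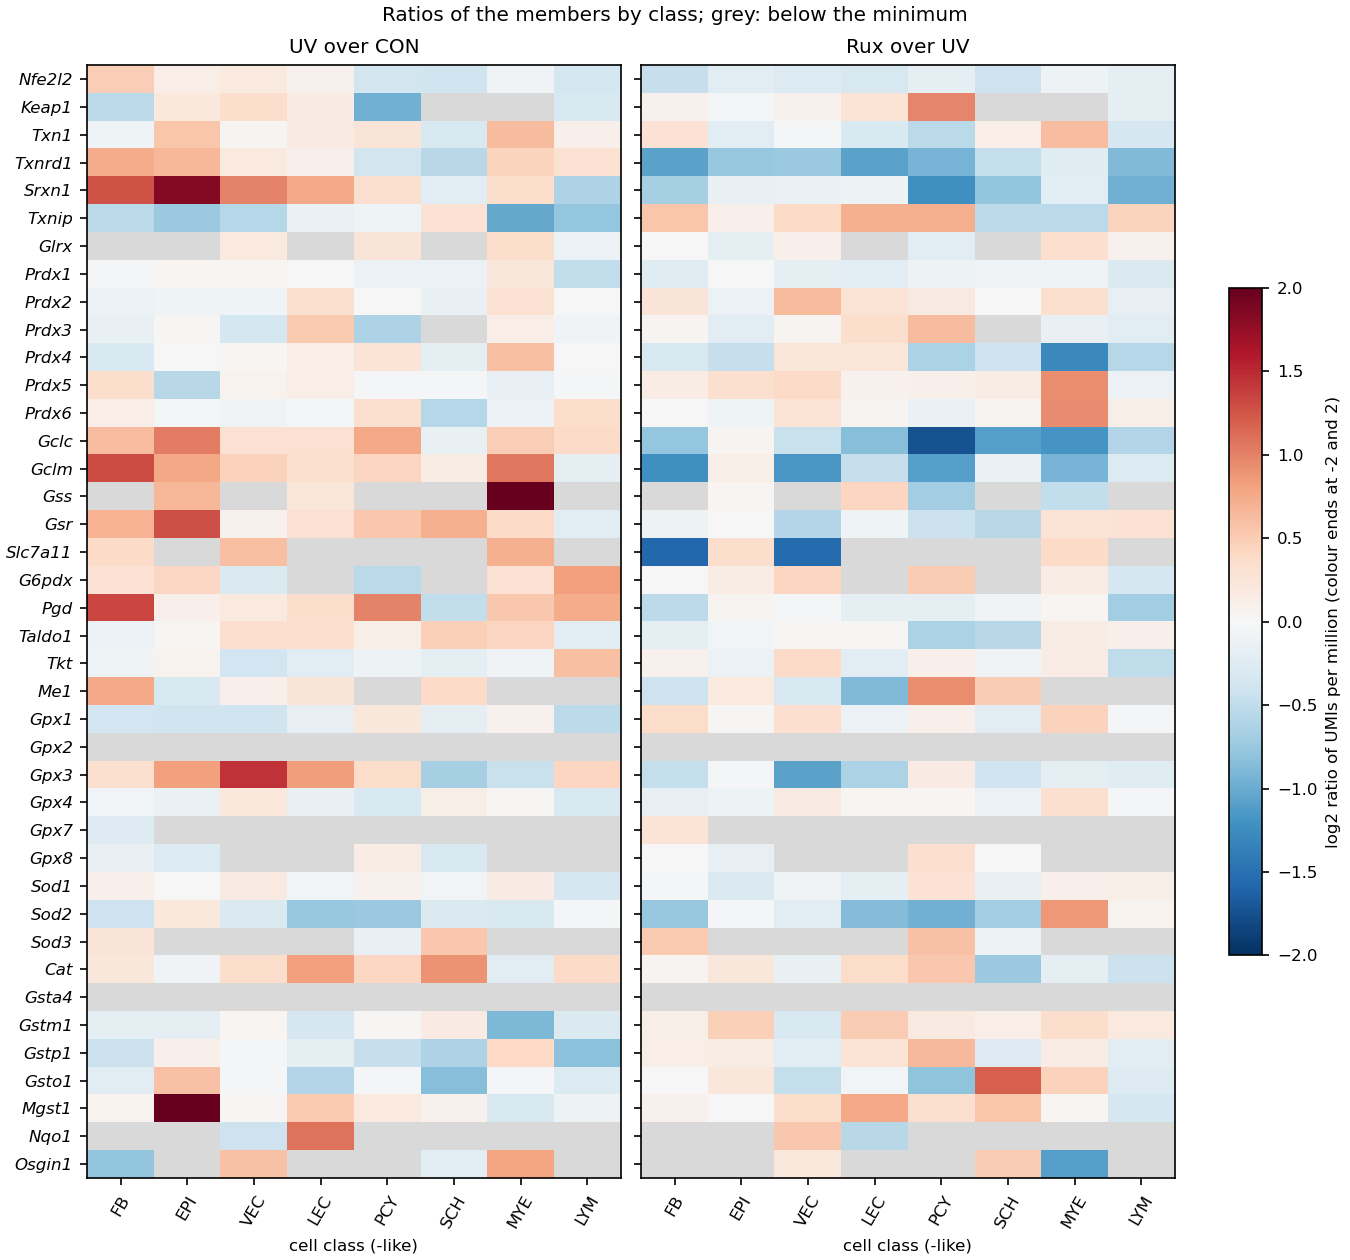
Log2 ratio of UV over CON and of Rux over UV for each member (rows, by role) in the classes with at least 100 cells in every library (columns), as colour, with values below the minimum in grey. For Rux over UV, Txnrd1 and Nfe2l2 were below 0 in every class shown.

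A small epithelial cluster had high levels of the genes of glutathione supply. Cluster 36, led by Fhod3, Kcnb2 and Cyp2s1, held 19 CON, 57 UV and 146 Rux cells. In it Gclc was at 150, 740 and 378 CPM, Gclm at 161, 542 and 403 CPM, and Gsr at 121, 333 and 285 CPM. Slc7a11 there rested on 3 UMIs in CON, and was at 177 CPM in UV and 121 CPM in Rux. Every one of these was higher in UV than in Rux within the cluster, while the class as a whole was level, and the cluster held more cells in Rux. In Rux the cluster gave 30.8% of the Gclc UMIs and 59.1% of the Slc7a11 UMIs of EPI. In UV it was cluster 6, a basal-type cluster of 466 cells led by Hist1h1b, that gave the most, with 43.2% of Gclc, 41.9% of Gclm, 52.9% of Gsr and 43.4% of Slc7a11 UMIs, and cluster 6 also led for Gsr in Rux, with 37.7%. The basal-type name of cluster 6 rests on marker scores. Its leading genes included several histone genes and none of the basal markers, so its place in the epidermis or follicle is not settled. Slc7a11 in EPI as a whole had 1.45, 11.7 and 14.9 CPM. The 19 CON cells of cluster 36 were too few for a ratio within it.

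Across the 8 larger classes, Txnrd1, Srxn1, Nfe2l2 and Prdx1 each had a lower level in Rux than in UV in all 8, with log2 ratios from -1.07 to -0.25 for Txnrd1, from -1.23 to -0.10 for Srxn1, from -0.46 to -0.10 for Nfe2l2 and from -0.28 to -0.02 for Prdx1. Gclc and Gclm were below 0 for Rux over UV in 7 of 8 pooled classes, EPI being the exception for both, although most EPI clusters lay below 0. Gpx3 was also below 0 in 7 of 8. Prdx5, Gstm1 and Mgst1 went the other way, each above 0 in 7 of 8. For UV over CON, Gclc, Gclm, Gsr and Pgd were each above 0 in 7 of 8 classes, and Txnrd1 and Srxn1, among others, in 6 of 8. Txnip, Sod2 and Gsto1 were each below 0 in 7 of 8. Nfe2l2 was above 0 in 4 of 8, namely FB, EPI, VEC and LEC, at 0.49 or less and so within 1.5-fold. These counts are of the side of 0 only, whatever the size of the ratio. How often other genes lay on 1 side of 0 in as many classes was not counted. The 8 classes came from the same libraries, so they are not independent checks.

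Beyond FB and EPI, members are named where they passed 2-fold with at least 50 UMIs. For UV over CON, MYE had more Gclm, at 54.3 CPM in CON and 113 in UV (log2 ratio 1.06), and more Gss, at 4.66 and 20.7 CPM (2.09, on 9 and 42 UMIs), and less Txnip, at 142 and 69.4 CPM (-1.03). Nqo1 in LEC had a ratio of 1.08, and Glrx there had 1.07 on 21 and 32 UMIs, under the minimum of 10 CPM. Gpx3 in VEC had 47.6, 130 and 62.0 CPM, with UV highest, beside fibroblast markers summing to 624, 674 and 404 CPM there. In Rux over UV, PCY had less Gclc, at 299 CPM in UV and 89.4 in Rux (-1.74), Srxn1 (-1.23) and Gclm (-1.11). VEC had less Slc7a11 (-1.54), Gclm (-1.16) and Gpx3 (-1.07), and LEC had less Txnrd1 (-1.07). MYE had less Prdx4 (-1.29), Gclc (-1.18) and Osgin1 (-1.10). MYE joined a cluster led by Ighg2b, with 204, 143 and 145 cells in CON, UV and Rux, and another led by Chil3, with 73, 97 and 303. The part of this mixture in the MYE ratios was not tested.

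Classes with fewer than 100 cells in some library gave ratios on few cells. Melanocyte-like cells (160, 66 and 36) had high Prdx1, at 1153, 1190 and 726 CPM, and Gstp1, at 686, 656 and 478 CPM, and their Slc7a11 was at 9.74, 52.4 and 7.04 CPM. Their Me1 and Gpx3 were also past 2-fold higher in UV than in CON, with ratios of 2.15 and 1.72, beside fibroblast markers of 405, 714 and 779 CPM, and their Prdx4 and Slc7a11 lower in Rux than in UV, with -1.26 and -2.77. Muscle progenitor-like cells (155, 36 and 32) had ratios of -1.15 for Gpx3 and -1.54 for Sod2 in UV over CON and -1.58 for Txnrd1 in Rux over UV. Fibroblast markers in that class summed to 5825, 16212 and 15920 CPM, above its own 943, 492 and 642 CPM, so its name rests on a mixed signal. Mast-like cells (64, 172 and 211) had ratios of -1.41 for Prdx1 and -1.02 for Sod1 in UV over CON, beside fibroblast markers of 7777, 732 and 908 CPM. Skeletal muscle-like cells (154, 30 and 47) had 1.10 for Nfe2l2, 1.12 for Txnrd1 and -1.06 for Me1 in UV over CON, beside fibroblast markers of 2404, 7924 and 2210 CPM. The part of the fibroblast signal in these ratios was not tested. Neutrophil-like cells were past 2-fold in Pgd, Tkt, Gpx3 and Osgin1 for Rux over UV, with 1 to 15 UMIs of each in UV. Erythroid-like cells, which numbered 1 in CON, were past it in Gpx1 for UV over CON and in Prdx2 for Rux over UV.

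Other genes of the NRF2 pathway were held in a list of 65. In FB, 49 were above the minimum for UV over CON, of which 5 were higher and 2 lower, with a median log2 ratio of 0.02. Of all genes, 6.06% were higher and 7.68% lower. Hmox1, heme oxygenase, had 54.4 CPM in CON, 440 in UV and 111 in Rux, ratios of 3.01 for UV over CON and -1.98 for Rux over UV, with UV highest and CON lowest, which is the order of Gclm. The other 4 that were higher were Ugdh, Esd, Abcc1 and Bach2. Aldh3a1, an aldehyde dehydrogenase, went the other way, with 22.8, 3.72 and 12.8 CPM and a ratio of -2.61. Of 48 above the minimum for Rux over UV in FB, 2 were higher and Hmox1 alone was lower, with a median of -0.05. Beside this, 3.34% of all genes were higher and 5.11% lower. Trp53inp1 had 30.4, 26.2 and 52.5 CPM, a ratio of 1.00 for Rux over UV. In EPI, 2 of 43 were higher and 2 lower for UV over CON, with a median of 0.04, beside 4.23% and 3.69% of all genes. For Rux over UV in EPI, 2 of 47 were higher and 1 lower, with a median of 0.01, beside 2.67% and 1.69% of all genes. None of these was past 2-fold. Hmox1 in EPI had 4.41, 13.5 and 9.11 CPM in CON, UV and Rux. It was more than 2-fold higher in UV than in CON, but under the minimum mean of 10 CPM there and so not counted. Txnrd1 and the peroxidases Gpx1 to Gpx4 need selenocysteine. Of 10 genes for selenoprotein synthesis or for other selenoproteins above the minimum in FB, none was past 1.5-fold for UV over CON.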

How the data were processed

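Dorsal skin from 3 conditions (CON, UV, Rux; 1 library each) was profiled with 10x 3′ v3.1 single-cell libraries. The deposited values are raw UMI counts per gene and cell, filtered to cells by the authors with Cell Ranger and mm10. The submitters' notes name Cell Ranger 6.1.2, whereas the file headers name 7.0.0. Total depth was 165337289, 133972374 and 131570327 UMIs over 13170, 12411 and 11287 barcodes.

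A cell was kept if it had 200 genes or more and no more than 10% of its UMIs from mitochondria. The cells with the highest Scrublet scores in Scanpy 1.11.5 were removed as doublets, 0.8% per 1000 barcodes, which took out 1269, 1128 and 923. Cells were normalised and clustered in Seurat 5.3.0 (R 4.3.3) with 2000 variable genes, 30 principal components, resolution 1.5 and no batch correction, and clusters were named from fixed markers. UMIs were summed per class and library and scaled to CPM. No test was made, as cells are not replicates. A member was called past a fold of 1.5 where the mean of both libraries was at least 10 CPM and their sum at least 20 UMIs. Intervals were exact Poisson for levels and exact binomial (Clopper-Pearson) for ratios, from SciPy 1.17.1. They were tested on simulated counts with Poisson error only, which is the error they assume. That test therefore says nothing of variation between cells or mice.

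Members, gene lists and markers were chosen with earlier results of these data known. All members past 1.5-fold in FB or EPI, with Nfe2l2 and Keap1, are given by value, and the others by range. In other classes members are named past 2-fold with at least 50 UMIs, and other pathway genes past 2-fold, with Hmox1. A few further members and the other pathway genes past 1.5-fold were named after their values were seen. Weighted ratios give each cluster its CON cell number in both libraries. Only clusters with at least 20 cells in every library were used, 9 in FB and 10 in EPI. Cluster 26 of FB and clusters 32 and 36 of EPI were left out. Alternatives in cell filter, doublets, resolution, scaling, totals, minimum and weighting were tried for the members in FB and EPI only. Batch and condition cannot be told apart with 1 library each.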

Additional observations from a re-analysis of the deposited data

Results flagged for a closer look

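In 5 cases a member passed a filter for opposite ratios in FB and EPI under the same comparison. The filter asked for intervals on opposite sides of 0, at least 50 UMIs in each class and a minimum size of both ratios. Further members had ratios of opposite sign without passing it, such as Me1 for UV over CON and Gclm and Gclc for Rux over UV. With 1 library per condition, none of these differences was tested. For UV over CON, Prdx5 had a log2 ratio of 0.36 in FB and -0.56 in EPI. Osgin1 had -0.79 in FB and 1.59 in EPI, where its levels were 2.23, 6.71 and 9.56 CPM in CON, UV and Rux, under the minimum of 10 CPM. For Rux over UV, Osgin1 had -0.46 in FB and 0.51 in EPI. Slc7a11 had -1.56 in FB and 0.35 in EPI, where cluster 36 held 59.1% of its Rux UMIs. Gsta4, an alpha-class transferase for lipid aldehydes, had -0.52 in FB and 1.23 in EPI, on levels of at most 7.37 CPM.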

How the results depend on the processing

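Alternatives were run only for the members in FB and EPI, for UV over CON and Rux over UV. Among these, no value past 1.5-fold changed sign. Other classes and other pathway genes were not rerun. The share of all genes past 1.5-fold was not computed under the alternatives, so the counts below have no background beside them. The number of FB members higher in UV than in CON, 7 as reported, was 3 under the strict cell filter and 4 with clusters weighted as in CON. Under the strict filter 1 cluster of fibroblast markers (44, 808 and 283 cells) was left unnamed, and the count was 7 once it was included, a setting chosen after seeing the data. The weighting dropped Txnrd1, Gclc, Gsr and Me1 and added Gpx3. The number lower in UV, 1 as reported, was 2 with no minimum (Gpx2 added) and 2 with weighting (Sod2 added). In FB, the number of members higher in Rux than in UV, 0 as reported, was 1 with median-of-ratios scaling (Txnip). In EPI, the number higher in UV was 14 with no minimum in place of 9, and the number lower was 2 under the strict filter (Prdx5 added) and 0 with weighting. In EPI, the number higher in Rux than in UV was 2 with equal weight per cell and 3 with no minimum in place of 0, and the number lower was 3 both without doublet removal and at resolution 0.8 in place of 1. The members added there were Me1 and Mgst1, the latter at -0.68 and -0.75 in place of 0.00, and the epithelial cells of both settings included the Elovl3-led cluster. Those cells also enter the ratio of Mgst1 for UV over CON in both settings. The median ratio over the members changed sign in FB, from -0.04 to 0.058 (median of ratios), 0.088 (equal weight per cell), 0.038 (no minimum) and 0.011 (weighted) for UV over CON. In FB it moved for Rux over UV from -0.01 to -0.10 (equal weight per cell) and -0.085 (weighted). In EPI it moved from 0.08 to 0.18 (resolution 0.8), 0.21 (no minimum) and 0.17 (weighted) for UV over CON, and from -0.02 to -0.14 (no doublet removal) and -0.15 (resolution 0.8) for Rux over UV. Other causes were not tested.

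No paired analysis was possible because each condition had 1 library. For the same reason there was no fit without a library. Counting error was small for members with many UMIs and larger for those near the minimum, such as Osgin1 in FB and Gss in MYE. The spread between mice was not measured.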
